A study of Mus musculus with 6 samples.

Results

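The 32 genes described here encode the enzymes of glycolysis and the transporters that bring glucose into the cell and carry lactate out of it. They were listed by symbol, isoform by isoform for each step, by a rule that sets no threshold on measured values, and all 32 were found among the 23154 genes of the deposited table. Expression was measured by RNA sequencing in RAW264.7 cells, an established mouse macrophage-like line. One stable line carried pINDUCER20b-HA-NUR77, from which doxycycline induces HA-tagged NUR77, the orphan nuclear receptor encoded by Nr4a1. The control line carried the same vector with GFP. Cells of both lines were seeded, left for 24 hours and then kept with 1 µg/mL doxycycline for 18 hours, with 3 separate dishes per line. Libraries of cells without doxycycline were not analysed here. Each group is 1 stable line, so the transgene cannot be told apart from other differences between the lines, and p-values measure the spread between dishes. The sources used here do not say whether the lines are clones.

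Glycolysis turns glucose into pyruvate, and lactate dehydrogenase turns pyruvate into lactate, which leaves the cell through monocarboxylate transporters. Most steps can be run by several isoforms encoded by separate genes, which differ in tissue distribution, kinetics and regulation. Macrophages are known to raise glycolysis and lactate release on inflammatory activation. Hypoxia-inducible factor and Myc are known activators of many of these genes.

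The libraries held between 11199468 and 15929487 reads on genes. Levels are in normalized reads, which are scaled to 10000000 reads on genes per library. Nr4a1 stood at 170, 148 and 161 normalized reads in the GFP line and at 288, 314 and 297 in the NUR77 line, a log2 fold change of 0.90 (adjusted p = 5.5e-08). Reads of the transgene and of the cells' own Nr4a1 cannot be told apart in these values. All 10 macrophage markers had reads in both lines, but 6 fell and 2 rose in the NUR77 line. Over all genes tested as described below, 28.3% were lower and 38.4% higher. The summed level of the 10 markers lay between 77232 and 78725 normalized reads over the GFP libraries and between 29350 and 30925 in the NUR77 libraries. Much of that fall came from Lyz2, with means of 26664 and 2566 normalized reads, and Mpeg1, with 16580 and 1019. Adgre1, Csf1r, Cd68 and Cd14 also fell, Itgam and Fcgr1 rose, and Spi1 and Ptprc did not pass the test. The part of these markers in the results below was not tested. Lists of erythroid, epithelial, T cell and B cell markers summed to at most 3.14 normalized reads in any library. Among 5 neutrophil markers S100a8 held nearly all reads, with 2.79, 5.02 and 3.92 normalized reads in the GFP libraries against 39.3, 24.4 and 13.5, and the other 4 summed to at most 1.88 in any library. Among 4 neuron markers Tubb3 alone had reads, at most 5.65 in a GFP library and at most 11.1 in a NUR77 library. In bulk RNA, fewer cells of a type and less RNA per cell cannot be told apart.

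Of the 32 genes, 31 reached the minimum mean of 10 normalized reads and were tested with limma, with p-values adjusted over all 11201 tested genes and a threshold of 0.05. In the NUR77 line 20 of the 31 (64.5%) were higher, 4 (12.9%) were lower, and 7 did not pass the test. Over all tested genes, 38.4% were higher and 28.3% lower, so that 66.7% were called in either direction. With TMM scaling these shares were 32.2% higher and 34.2% lower, while 19 of the 31 genes were higher and 5 lower. The genes' median log2 fold change was 0.38, beside 0.06 over all tested genes. Lines did not overlap for 24 of the 31 genes, a share to be read against 70.6% of all tested genes. Of these, 20 lay higher in every NUR77 library, which held for 40.3% of all tested genes. A called rise of at least 2-fold was measured for 4 of them, Slc2a1, Pfkp, Pfkfb3 and Eno3, and a called fall of that size for 1, Hk3. Over all tested genes, 7.68% were called at least 2-fold higher and 6.19% at least 2-fold lower. Added together, the 32 genes held 161712, 146010 and 161916 normalized reads across the GFP libraries, against 207071, 207664 and 215131 in the NUR77 libraries. That was 1.57% of all reads on genes in the GFP line, against 2.1% in the NUR77 line, and the ratio of the sums was 1.34.

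**Figure D1:**
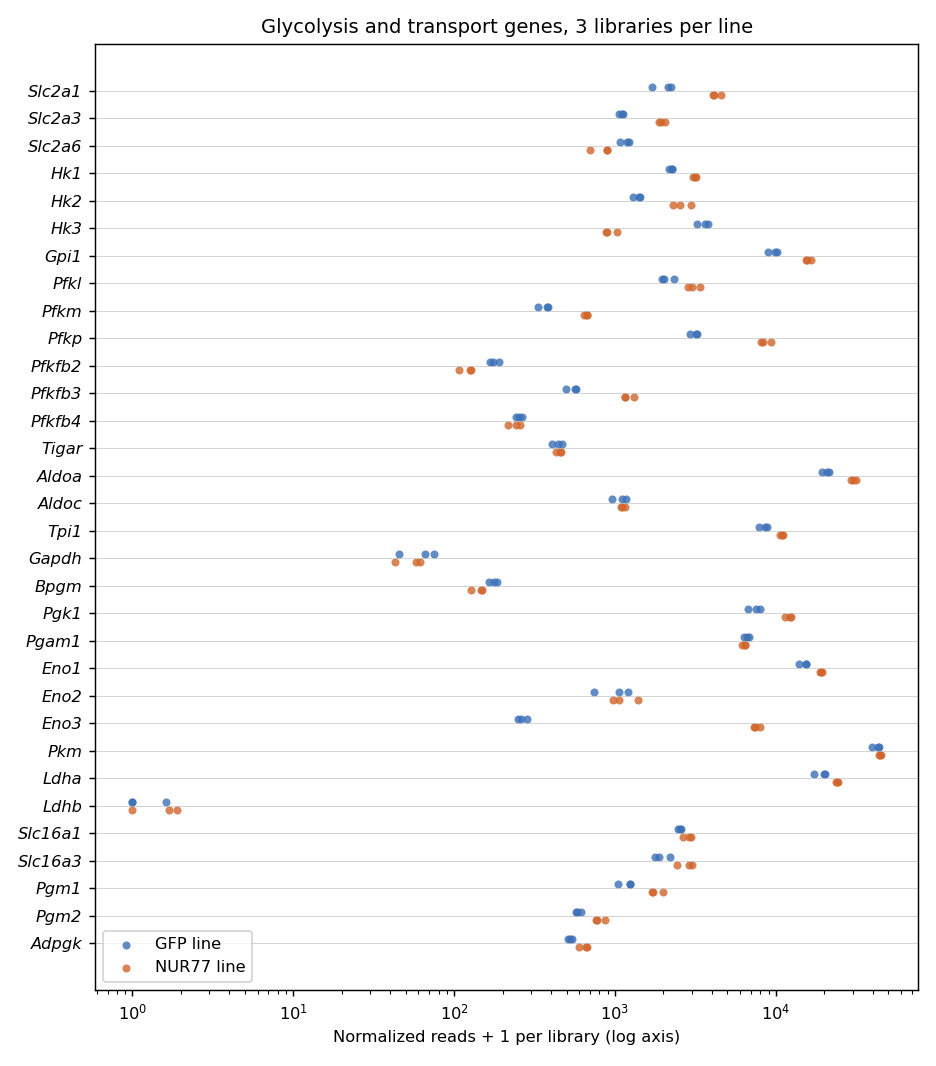
Normalized reads plus 1 of each of the 32 genes in each library, on a log axis, with 1 point per library (blue, GFP line; orange, NUR77 line). Eno3 moved from 250 to 284 normalized reads in the GFP line to 7360 to 7977 in the NUR77 line, and Hk3 is the gene with the widest gap in the opposite direction.

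Promoters of 31 of the 32 genes matched RefSeq entries for GRCm38.p6, and Slc2a3 had no entry. The 250 bases before the first listed start site are shown for 6 genes: the 3 with the widest changes among single isoforms (Eno3, Hk3, Pfkp), the main glucose transporter gene, and 2 later enzymes, Pgk1 and Eno1. All are written 5′ to 3′ on the gene's strand. Capitals mark the letters ACGTG or GCGTG on either strand, the core of the hypoxia response element, and AAAGGTCA on either strand, the NBRE to which NUR77 is known to bind as a monomer.
Slc2a1, chr4:119108495-119108744, plus strand: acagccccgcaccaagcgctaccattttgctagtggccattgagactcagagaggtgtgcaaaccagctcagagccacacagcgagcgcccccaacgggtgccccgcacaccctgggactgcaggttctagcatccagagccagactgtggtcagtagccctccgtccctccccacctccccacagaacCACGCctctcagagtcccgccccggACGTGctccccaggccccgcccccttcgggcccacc
Hk3, chr13:55021386-55021635, minus strand: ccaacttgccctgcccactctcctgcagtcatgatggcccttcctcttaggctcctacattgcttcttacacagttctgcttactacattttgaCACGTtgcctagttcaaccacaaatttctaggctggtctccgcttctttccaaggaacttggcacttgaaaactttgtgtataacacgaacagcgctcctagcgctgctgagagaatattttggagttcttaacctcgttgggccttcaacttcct
Pfkp, chr13:6648772-6649021, minus strand: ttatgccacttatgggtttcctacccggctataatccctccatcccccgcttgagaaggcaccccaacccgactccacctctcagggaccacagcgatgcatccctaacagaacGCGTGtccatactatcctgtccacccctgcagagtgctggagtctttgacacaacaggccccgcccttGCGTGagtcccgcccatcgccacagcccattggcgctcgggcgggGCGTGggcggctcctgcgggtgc
Pgk1, chrX:106186850-106187099, plus strand: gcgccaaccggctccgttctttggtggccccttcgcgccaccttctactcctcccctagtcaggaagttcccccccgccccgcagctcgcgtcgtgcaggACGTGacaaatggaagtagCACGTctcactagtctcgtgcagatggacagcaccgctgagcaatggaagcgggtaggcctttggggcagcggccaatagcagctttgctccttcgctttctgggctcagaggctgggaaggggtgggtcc
Eno1, chr4:150236458-150236707, plus strand: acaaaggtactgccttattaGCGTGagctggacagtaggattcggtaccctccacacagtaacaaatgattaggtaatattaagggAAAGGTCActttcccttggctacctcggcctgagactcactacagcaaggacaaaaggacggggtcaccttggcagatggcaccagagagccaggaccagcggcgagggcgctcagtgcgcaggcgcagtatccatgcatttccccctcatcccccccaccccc
Eno3, chr11:70656926-70657175, plus strand: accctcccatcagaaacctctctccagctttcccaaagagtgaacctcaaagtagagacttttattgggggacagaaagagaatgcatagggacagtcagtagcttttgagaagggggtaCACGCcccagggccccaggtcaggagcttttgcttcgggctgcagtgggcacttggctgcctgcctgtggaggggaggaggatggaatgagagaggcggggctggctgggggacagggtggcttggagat
In the Eno1 window the run AAAGGTCA is the NBRE, and the other capitals in these windows are hypoxia response cores.

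At least 1 hypoxia response core was present in 26 of the 31 genes (83.9%), against 41.5% of the 27025 genes with windows of the same length. A gene counted if any of its windows held a core. The 31 genes had more windows per gene, 45 in all, than the 27025 genes, with 32851 in all, which favours a match. Among the genes that rose, 17 of 19 had one, all but Gpi1 and Tpi1. It was found in 3 of the 4 that fell and in 5 of the 7 that did not pass the test, so the core was present in each class. The genes' 45 windows had a median GC content of 60.4%, against 52.4% over all windows, and ACGTG and GCGTG are rich in G and C. The NBRE was present in 1 of the 31 genes, Eno1, and in 1.55% of all genes. The E-box CACGTG, which contains ACGTG and is known to be bound by Myc, was present in 5 of the 31 (16.1%), namely Ldha, Pfkfb2, Pfkfb3, Pfkm and Slc16a1, and in 6.86% of all genes. A match describes letters in a window and not binding.

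Glucose uptake genes went in both directions. Slc2a1, which encodes GLUT1, the widespread basal glucose transporter (ENSMUSG00000028645, chromosome 4, 119108711 to 119137983, plus strand, mm10), had 2123, 1708 and 2238 normalized reads in the GFP line against 4059, 4126 and 4586 in the NUR77 line. The lines did not overlap, and the log2 fold change was 1.08 (SE 0.09, adjusted p = 1.9e-06), or 2.12-fold. Slc2a3, for the high-affinity transporter GLUT3, rose from a mean of 1098 ± 32.1 to 1954 ± 74.1 normalized reads (SD, n = 3 per line), a log2 fold change of 0.83 (adjusted p = 3.6e-10, limma). Slc2a6 encodes GLUT6, a transporter of myeloid cells and lymphoid tissue. It stood at 1067, 1190 and 1228 normalized reads in the GFP line against 703, 885 and 888 in the NUR77 line, and it fell by 0.50 in log2 units (adjusted p = 2.3e-04). On a per-length scale, reads per kilobase of the union of exons, Slc2a1 held 52.8% ± 3.73 of the summed level of these genes in the GFP line against 69.7% ± 0.918 in the NUR77 line. The share of Slc2a6 was 33.3% ± 3.3 and 14.7% ± 1.39. Shares are descriptions, with no test.

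Hexokinases trap glucose in the cell as glucose 6-phosphate. Hk3, the isoform best known from myeloid cells (ENSMUSG00000025877, chromosome 13, 55005985 to 55021385, minus strand, mm10), was at 3777, 3211 and 3622 normalized reads in the GFP line and at 877, 888 and 1030 in the NUR77 line. Every NUR77 library lay far below every GFP library, and Hk3 fell by 1.92 in log2 units (SE 0.07, adjusted p = 1.3e-12), to 0.264 of its level. Hk2, the inducible isoform known to sit on the mitochondrial surface, was at 1427, 1284 and 1407 normalized reads in the GFP line and at 2302, 2547 and 2955 in the NUR77 line. Its log2 fold change was 0.92 (SE 0.08, adjusted p = 2.5e-07). Hk1, the widespread isoform, rose from a mean of 2229 ± 47.2 to 3124 ± 67.6 normalized reads, which is 0.49 in log2 units (adjusted p = 1.0e-07). Adpgk, which phosphorylates glucose with ADP in place of ATP, rose less, from a mean of 525 ± 16.1 to 641 ± 39.9 normalized reads (0.29 in log2 units, adjusted p = 7.1e-04).

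Hk3 held 66.1% ± 1.05 of the summed hexokinase level per kilobase in the GFP line against 24% ± 0.706 in the NUR77 line. Hk2 went from 15.8% ± 0.205 to 41.2% ± 2.52 and Hk1 from 18% ± 0.86 to 34.8% ± 2.98. Hk3 led in the GFP line with each of the 3 gene lengths used. In the NUR77 line the leading gene depended on the length: Hk2 led with the union of exons, but Hk1 led with the longest transcript, at 49.1% against 31.6% for Hk2, and with the transcript of the longest coding sequence, at 53.1% against 29.1%. The summed hexokinase level was lower in the NUR77 line, at 1055 ± 69.8 normalized reads per kilobase against 1452 ± 97.7, a ratio of 0.727 with the union of exons, 0.798 with the longest transcript and 0.826 with the coding transcript.

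Gpi1, the isomerase that turns glucose 6-phosphate into fructose 6-phosphate, was at 10218, 8978 and 9825 normalized reads in the GFP line and at 15469, 15679 and 16449 in the NUR77 line. The lines were well separated, with a log2 fold change of 0.72 (adjusted p = 2.7e-09). Of the 50-base stretches of its coding transcript, 25.3% also occur in other annotated genes, so its reads may be split in counting.

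Phosphofructokinase commits sugar to glycolysis, and its 3 subunit genes all rose. Pfkp, the platelet-type subunit (ENSMUSG00000021196, chromosome 13, 6579768 to 6648777, minus strand, mm10), was at 3221, 2920 and 3207 normalized reads in the GFP line and at 8337, 8071 and 9307 in the NUR77 line. That change was 1.46 on the log2 scale (SE 0.06, adjusted p = 1.1e-12), or 2.75-fold. Pfkm, the muscle-type subunit, was at 383, 330 and 375 normalized reads against 666, 642 and 671 (log2 fold change 0.86, adjusted p = 6.6e-09). Pfkl, the liver-type subunit, was at 2006, 1959 and 2318 against 2856, 3014 and 3377 (log2 fold change 0.56, adjusted p = 5.6e-06). For each of the 3 genes the lowest NUR77 library exceeded the highest GFP library. The summed level per kilobase was 1.98 times as high in the NUR77 line with the union of exons and 2.3 times with the coding transcript. Pfkp took 35.5% ± 1.22 of that sum in the GFP line against 49.2% ± 0.785 in the NUR77 line. Pfkl led in the GFP line with the union of exons, at 47.9%, but with the coding transcript Pfkp led in both lines, at 62.9% and 75.2%.

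Fructose 2,6-bisphosphate is the strongest known activator of phosphofructokinase, made and removed by the bifunctional PFKFB enzymes. Pfkfb3, the isoform with the greatest bias towards making it (ENSMUSG00000026773, chromosome 2, 11471433 to 11554077, minus strand, mm10), was at 567, 495 and 573 normalized reads in the GFP line and at 1155, 1154 and 1306 in the NUR77 line. Its log2 fold change was 1.14 (SE 0.07, adjusted p = 2.2e-10). Pfkfb2, the heart-type isoform, was at 167, 173 and 188 normalized reads against 126, 106 and 124 and fell by 0.57 in log2 units (adjusted p = 1.1e-04). An annotated gene, Gm29427, overlaps Pfkfb2 on the same strand and holds 63.5% of its 50-base stretches, which makes that value uncertain. Pfkfb4 was at 253, 242 and 263 normalized reads against 214, 257 and 242, with overlapping lines (log2 fold change -0.09, adjusted p = 0.36). Tigar, whose product removes fructose 2,6-bisphosphate, was at 442, 467 and 405 against 454, 458 and 430, also with overlap (log2 fold change 0.03, adjusted p = 0.68). At this control point Pfkfb3 was the gene of the 4 that rose.

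Of the aldolases, which split fructose 1,6-bisphosphate, the predominant gene rose and the minor one did not pass the test. Aldoa was at 21348, 19412 and 20911 normalized reads in the GFP line and at 29190, 30292 and 31355 in the NUR77 line (log2 fold change 0.56, adjusted p = 2.6e-08). Aldoc was at 1167, 956 and 1110 against 1099, 1086 and 1153, with overlapping lines (log2 fold change 0.05, adjusted p = 0.52). Per kilobase Aldoa held 95.5% of the aldolase level in the GFP line against 96.8% in the NUR77 line. Tpi1, which interconverts the triose phosphates, was at 8503, 7808 and 8812 normalized reads against 11033, 10636 and 10929 (log2 fold change 0.38, adjusted p = 5.1e-06).

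Gapdh, which oxidizes glyceraldehyde 3-phosphate, was listed at 73.9, 44.6 and 64.7 normalized reads in the GFP line and at 42, 59.9 and 56.5 in the NUR77 line. The lines overlapped (log2 fold change -0.19, SE 0.19, adjusted p = 0.38). These values are far below those of its neighbours in the pathway. Of the 50-base stretches of its coding transcript, 90.4% also occur among 222 other annotated genes, so its reads may be split or lost in counting. Whether this made the listed level low was not tested. Neither a level nor a change of Gapdh RNA is read from these values here.

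In the lower pathway, Pgk1 makes the first ATP. Pgk1 (ENSMUSG00000062070, chromosome X, 106187100 to 106203699, plus strand, mm10) was at 7977, 6716 and 7568 normalized reads in the GFP line and at 12480, 11421 and 12297 in the NUR77 line. The lines were separate and the log2 fold change was 0.70 (SE 0.06, adjusted p = 2.2e-08), with 68% of its 50-base stretches shared with other genes. Bpgm, which makes 2,3-bisphosphoglycerate at the cost of that ATP, was at 183, 177 and 164 normalized reads against 149, 145 and 127. It fell by 0.31 in log2 units (adjusted p = 0.0089). Pgam1, the phosphoglycerate mutase, was at 6601, 6311 and 6761 against 6468, 6137 and 6436, with overlapping lines (log2 fold change -0.05, adjusted p = 0.4), and shares 41.5% of its stretches. With scaling by TMM the same gene passed the test as lower, at -0.12 (adjusted p = 0.035).

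The widest change among the 31 tested genes was that of Eno3, the enolase of mature muscle. Eno3 (ENSMUSG00000060600, chromosome 11, 70657202 to 70662513, plus strand, mm10) was at 261, 250 and 284 normalized reads in the GFP line and at 7400, 7977 and 7360 in the NUR77 line. Its log2 fold change was 4.83 (SE 0.06, adjusted p = 7.1e-19), or 28.5-fold, and none of its 50-base stretches occurs in another annotated gene. Eno1, the widespread enolase (ENSMUSG00000063524, chromosome 4, 150236721 to 150248879, plus strand, mm10), was at 15376, 13862 and 15498 normalized reads against 19156, 18924 and 19407 (log2 fold change 0.36, adjusted p = 6.1e-06). Eno1 shares 72.2% of its stretches with 9 other genes. Eno2, the neuron-type enolase, was at 1212, 735 and 1059 normalized reads against 965, 1053 and 1387, with overlapping lines (log2 fold change 0.19, SE 0.25, adjusted p = 0.54).

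Eno3 made up 0.169% of the summed reads of the 32 genes in the GFP line against 3.61% in the NUR77 line. Per kilobase of the union of exons, its share of the enolase level was 4.86% ± 0.236 and 53.4% ± 1.55, with Eno1 at 88.4% ± 1.05 and 43.7% ± 1.23. These shares depend on the gene lengths used, and most of all on that of Eno1. Eno1 measured 5379 bases with the union of exons and 2027 with the longest transcript, while Eno3 measured 1739 and 1564. With the longest transcript Eno3 went from 2.15% to 32.9% and Eno1 from 93.3% to 64.3%, so Eno1 led in both lines, and with the coding transcript Eno3 went from 2.31% to 34.6%. The summed enolase level was 2.6 times as high in the NUR77 line with the union of exons, 1.87 times with the longest transcript and 1.91 times with the coding transcript. Eno1 shares 72.2% of its 50-base stretches with other genes, so its reads may be split in counting and its share understated. That was not tested. Eno1b, one of those genes and not counted in these sums, was at 1559 ± 53 normalized reads in the GFP line against 2075 ± 157 in the NUR77 line. Its log2 fold change was 0.41 (adjusted p = 9.5e-06).

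Of 12 skeletal muscle markers, 8 were too low to be tested. Of the 4 tested, Tnni2 was lower, at 385, 336 and 372 normalized reads with GFP against 96.4, 58.5 and 71.6, and it held most of the reads of the list. Acta1, Myl1 and Mylpf had log2 fold changes of 1.03, 0.98 and 0.52 and did not pass the test (adjusted p of 0.11, 0.11 and 0.43). The 11 markers other than Tnni2 summed to 53.7, 47.7 and 45.8 normalized reads across the GFP libraries, against 217, 53.6 and 49.3 in NUR77 replicates 1, 2 and 3. Replicate 1 of the NUR77 line was the highest for these markers, and also for 6 fibroblast markers, which summed to 97.3 there against 22.3 to 32.7 in the other NUR77 libraries. Eno3 was at 7400 in that library and at 7977 and 7360 in the others, and without it the log2 fold change was 4.85 (adjusted p = 4.4e-15). Pgam2, the muscle-type phosphoglycerate mutase, was at or below 0.893 normalized reads in every library. The 24 tested genes nearest to Eno3 on chromosome 11, 12 on each side, had a median log2 fold change of 0.02, with 9 higher and 7 lower. For Hk3 on chromosome 13 the same median was 0.06.

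**Figure D2:**
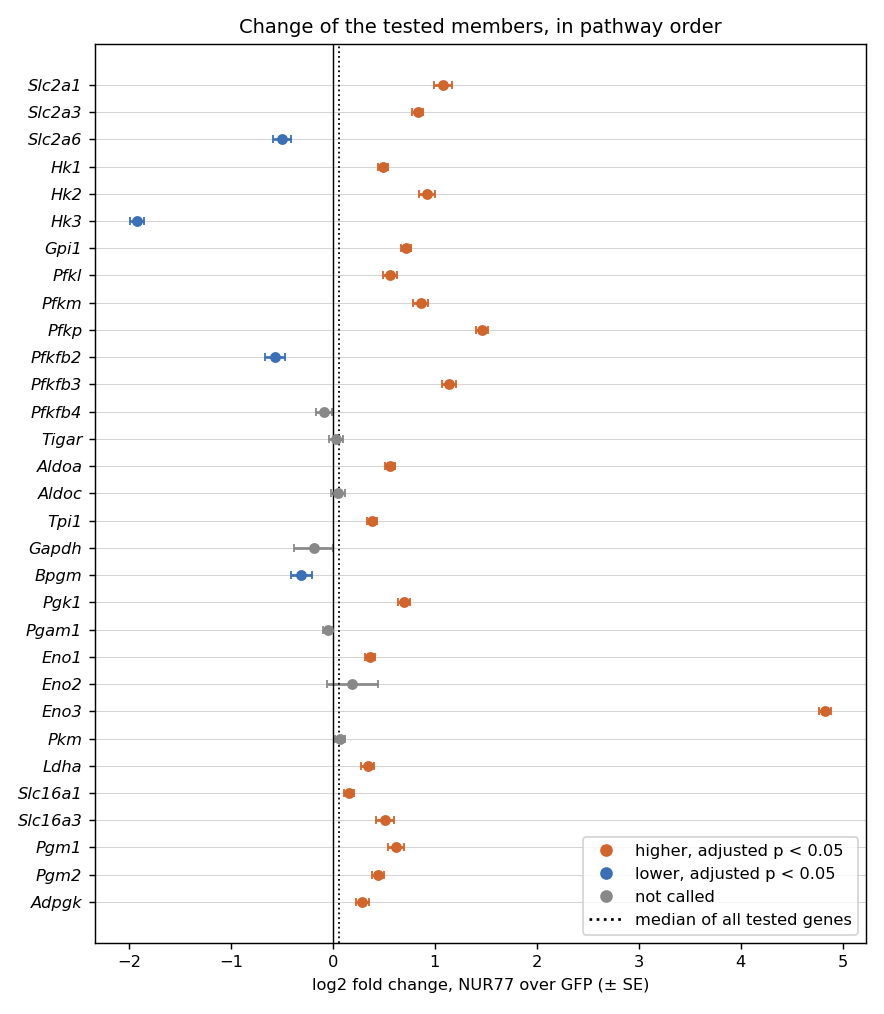
Log2 fold change, NUR77 over GFP, of each tested gene on the log2(normalized reads + 1) scale, with its standard error from limma. Eno3 stands at 4.83 and Hk3 at -1.92, while the other genes lie between -0.57 and 1.46.

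Pyruvate kinase and lactate dehydrogenase close the pathway. Pkm was the gene with the most reads of the 32, at 43243, 39879 and 43726 normalized reads in the GFP line against 43658, 44477 and 45056 in the NUR77 line. The lines overlapped and the test was not passed (log2 fold change 0.07, adjusted p = 0.19). Counts per gene do not separate the M1 and M2 splice forms of Pkm. Ldha, the subunit that favours lactate formation (ENSMUSG00000063229, chromosome 7, 46841475 to 46855627, plus strand, mm10), was at 20088, 17147 and 19856 normalized reads against 24482, 23729 and 24110, and the lines did not overlap. Its log2 fold change was 0.34 (SE 0.06, adjusted p = 4.2e-05). Ldhb, the subunit of oxidative tissues, had 1 read in the GFP line and 2 reads in the NUR77 line over 3 libraries each. It was below the minimum mean for testing, and no fold is given because both lines were under the limit of 3 reads per line.

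Both lactate transporter genes passed the test as higher, Slc16a1 only narrowly. Slc16a3 encodes MCT4, known for lactate export from glycolytic cells. It was at 1875, 1765 and 2194 normalized reads in the GFP line and at 2430, 2868 and 3000 in the NUR77 line (log2 fold change 0.51, adjusted p = 5.4e-04). Slc16a1 encodes MCT1, which carries lactate in both directions, and was at 2450, 2574 and 2546 against 2947, 2865 and 2655. Its log2 fold change was 0.16 (adjusted p = 0.012). That small rise did not pass the test with 3 other scalings of the libraries (0.09 to 0.10, adjusted p of 0.1 to 0.17), with limma without a trend (adjusted p = 0.051), or without GFP replicate 1 (adjusted p = 0.054). The difference between the 2 transporters, as the log2 ratio of Slc16a3 to Slc16a1, was 0.35 higher in the NUR77 line, with overlapping lines (exact two-sided permutation p = 0.2). Bsg, whose product basigin carries both transporters to the cell surface, rose from a mean of 2858 ± 250 to 4905 ± 148 normalized reads (0.78 in log2 units, adjusted p = 5.0e-09). Emb, for the alternative chaperone embigin, had at most 0.893 normalized reads in any library.

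Phosphoglucomutase links glucose 6-phosphate to glycogen, and both genes listed under this step rose. How much the product of each gene contributes to the step was not measured. Pgm1 (ENSMUSG00000025791) was at 1235, 1037 and 1241 normalized reads in the GFP line and at 1712, 1701 and 1992 in the NUR77 line (log2 fold change 0.62, adjusted p = 5.3e-06). Pgm2 (ENSMUSG00000029171) was at 574, 613 and 579 against 860, 770 and 764 (log2 fold change 0.44, adjusted p = 9.2e-06). Pgm1 shares 13.6% of its exon bases with Itgb3bp on the opposite strand, and no source used here says whether the counting used strand.

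**Figure D3:**
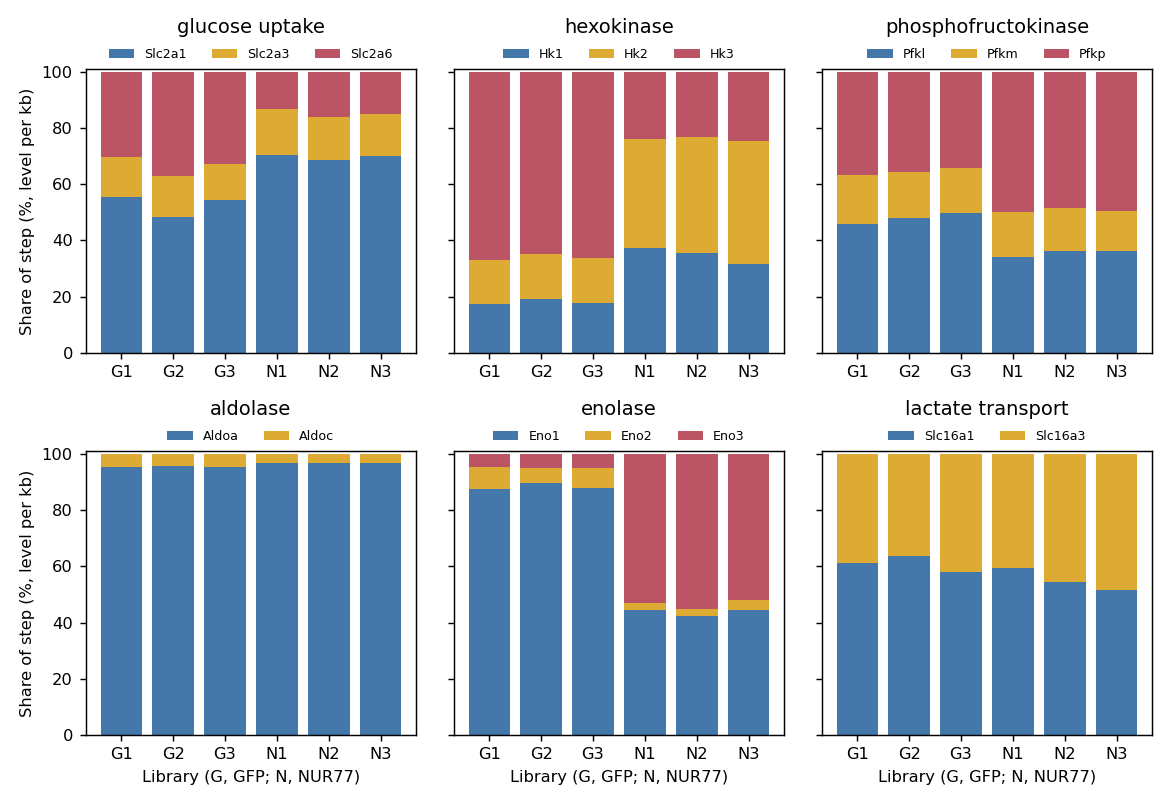
Share of each isoform in the summed level of its step, per kilobase of the union of exons, in each of the 3 GFP (G) and 3 NUR77 (N) libraries. The enolase panel goes from a mean of 4.86% to 53.4% Eno3 and the hexokinase panel from 66.1% to 24% Hk3, and the sizes of the shares depend on the gene length used.

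Isoform use was tested within each library, where the scaling of the libraries cancels, as the log2 ratio of each isoform to a reference isoform of its step, over 14 pairs. With 3 libraries against 3 the smallest exact two-sided permutation p is 0.1, so no pair could pass 0.05, and the adjusted p was at least 0.127. For 11 of the 14 pairs that smallest p was reached, which means only that the lines did not overlap. Taken singly, 70.6% of all tested genes had lines that did not overlap, so this count is not read as a result on isoforms. The log2 ratio of Eno3 to Eno1 was -5.88, -5.78 and -5.77 in the GFP libraries and -1.37, -1.25 and -1.40 in the NUR77 libraries, a difference of 4.47. Hk3 to Hk1 stood at 0.74, 0.56 and 0.69 against -1.86, -1.82 and -1.57, a difference of -2.41. Pfkfb2 to Pfkfb3 differed by -1.71 and Slc2a6 to Slc2a1 by -1.58, both towards the reference. The Pfkp to Pfkl ratio was 0.90 higher in the NUR77 line and Hk2 to Hk1 was 0.43 higher. Libraries of the lines overlapped for Eno2 to Eno1, with a difference of -0.17, Pgm2 to Pgm1, with -0.19, and Slc16a3 to Slc16a1.

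**Figure D4:**
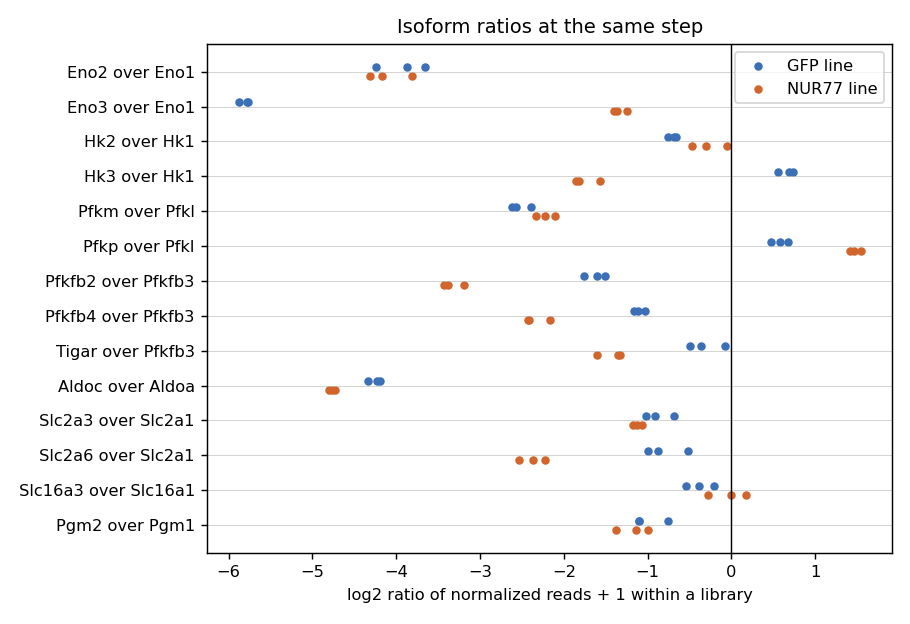
Log2 ratio of normalized reads of each isoform to the reference isoform of its step, 1 point per library (blue, GFP line; orange, NUR77 line). The Eno3 to Eno1 ratio lies between -5.88 and -5.77 in the GFP line and between -1.40 and -1.25 in the NUR77 line.

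The amount of sequence shared with other genes differed widely between the 32 genes. Among the 22 genes with under 10% of their 50-base stretches in other genes, all were tested, 15 were higher and 3 lower, with a median log2 fold change of 0.46. Among the 10 with more sharing, 9 were tested, 5 were higher and 1 lower, with a median of 0.34. Over all tested genes, 38.4% were higher and 28.3% lower, with a median of 0.06. The difference between the sets with less and more sharing was not tested. Besides Gapdh, Eno1, Pgk1, Pfkfb2 and Pgam1, the genes with over 10% shared were Pkm, Ldhb, Gpi1, Ldha and Aldoa.

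Around the pathway, 88 companion genes were listed: other paralogs, side branches, glucose output, glycerol phosphate metabolism, and chaperones and regulators. Of these, 4 were not in the table (Gapdhs, Pklr, Slc16a8 and G6pc, not analysed here), 26 were below the minimum level and 58 were tested. The test was passed by 28 as higher (48.3%) and 14 as lower (24.1%), against 38.4% and 28.3% of all tested genes, and the median log2 fold change was 0.14. Side branches had 30 tested genes, 14 higher and 6 lower. Glycogen genes went in both directions. Gbe1, the branching enzyme, was at 417, 261 and 333 normalized reads in the GFP line against 1168, 1002 and 1212 in the NUR77 line (log2 fold change 1.76, adjusted p = 8.0e-05). Gys1, glycogen synthase, rose by 0.91 (adjusted p = 1.7e-05), and Gyg, the glycogenin that primes it, fell by 1.02 (adjusted p = 1.3e-10). Sord, sorbitol dehydrogenase, and Pmm1, a phosphomannomutase, rose by 1.15 and 0.82, while Khk, ketohexokinase, and Galk2, a galactokinase family member, fell by 1.05 and 0.79 on the log2 scale. Gk, glycerol kinase, rose by 1.54, from 618 ± 24 to 1796 ± 130 normalized reads.

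Among other paralogs, 4 of 10 tested were higher (40%) and 3 lower (30%), near the 38.4% and 28.3% of all tested genes. Slc16a7, for the monocarboxylate transporter MCT2, was at 231, 225 and 232 normalized reads in the GFP line against 53.6, 55.7 and 56.5 in the NUR77 line, and fell by 2.03 in log2 units (adjusted p = 1.6e-11). The extremes of the whole companion list, chosen after their values were seen, were low-level genes: Slc5a1, a sodium-coupled glucose transporter, at 2.37 ± 1.76 against 46.9 ± 2.07 normalized reads (log2 fold change 3.95), and Pgm5, a phosphoglucomutase relative, at 33.2 in the GFP line against 2.22 in the NUR77 line (-3.57). Of 4 tested genes of glucose output, 2 were higher (50%) and 1 lower (25%), beside the same 38.4% and 28.3% of all tested genes. The lower gene was G6pc3, a glucose 6-phosphatase of many tissues, which fell by 0.53 (adjusted p = 7.9e-06).

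Regulators included Myc, a transcription factor with many glycolytic targets, which was at 49.5, 51.5 and 38.6 normalized reads in the GFP line against 467, 453 and 523 in the NUR77 line. Its log2 fold change was 3.35 (SE 0.11, adjusted p = 1.0e-13), with no overlap between the lines. Hif1a, named after its values were seen because its binding core was searched above, was at 2609 ± 12.2 against 3103 ± 168 normalized reads (log2 fold change 0.25, adjusted p = 3.6e-04). Txnip, which lowers glucose uptake through GLUT1, was at 7544, 9164 and 8166 normalized reads against 6524, 5376 and 3962. The lines did not overlap, but the NUR77 libraries were spread widely, and the log2 fold change of -0.67 had an adjusted p of 0.04. The gene no longer passed the test without GFP replicate 1 (adjusted p = 0.061), 2 (0.1) or 3 (0.092), without NUR77 replicate 2 (0.08), and with no filter on low genes (0.069).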

How the data were processed

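Polyadenylated RNA of 6 dishes, 3 per line, was sequenced from strand-specific libraries, per the labels' protocols. The authors deposited log2 values per gene and library. From the values, each is log2 of normalized reads plus 1, the undone values sum to 10000000 per library, and 100% were whole multiples of 1 read within a tolerance of 0.1 read. TopHat2 2.1, HTSeq and DESeq2 with mm10 are named per the submitters' processing notes; no source used here gives the role of each, the strand setting or the annotation release. Totals were set equal, so abundant genes that differ shift the rest slightly. No column was left unused, a count of 0.

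Genes were named and placed with GENCODE M21 (GRCm38), which named 22872 of 23154 identifiers. Lines were compared with limma 3.58.1 (R 4.3.3), with trend and robust moderation, on log2(normalized reads + 1), for genes averaging at least 10, without covariates, on all 6 libraries. Benjamini-Hochberg adjustment ran over 11201 genes and the threshold was 0.05. Every adjusted p of a fold change is from this fit unless another setting is named; adjusted p of isoform ratios are over the 14 pairs. Fold changes on this scale understate changes of low genes. Values after ± are SDs over 3 libraries. The script was tested on simulated data. Libraries of one line differed by more than sampling noise (chi-square per degree of freedom 2.48 to 6.33 over genes), so each was counted once; this does not test whether the dishes were separate.

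Isoform levels per kilobase used the union of exons, the longest transcript, or the transcript with the longest coding sequence. Sharing was the percentage of 50-base stretches of a gene's coding transcript found in transcripts of other annotated genes. A limit of 3 reads per line marks genes too low for a fold and covers counting error only. The genes and lists were chosen with earlier results of these data known. All 32 genes are named, and of the companions up to 6 that rose and 6 that fell, the widest past the threshold with at least 50 normalized reads on average in the higher line and no overlap, plus Bsg, Emb and Txnip. The companions Eno1b, Pfkfb1, Hif1a, Slc5a1 and Pgm5 were named after their values were seen, and Pgam2 was also named outside that rule. Alternatives were other pseudocounts, filters and scalings, limma without trend, limma-voom, a replicate block and each library left out.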

Additional observations from a re-analysis of the deposited data

How the results depend on the processing

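Of the 32 genes, 19 to 20 were called higher in every setting run and 4 lower, or 5 with TMM scaling, where Pgam1 was added. Leaving out each library in turn gave 19 to 20 higher and 4 lower, 25 to 28 companions higher and 12 to 16 lower, and 60.3% to 64.9% of all genes called (35.4% to 37.8% higher, 24.9% to 28.1% lower). Scaling evened the balance over all genes: 32.2% were higher and 34.2% lower with TMM, 33.2% and 33.1% with upper-quartile and 33.7% and 32.6% with median-of-ratios scaling, and companions went to 24 higher and 18 lower with TMM and 25 and 17 with the other scalings. Genes that did not pass the test changed sign: Tigar with TMM (-0.04), upper-quartile (-0.03) and median-of-ratios scaling (-0.02) and without GFP replicate 3 (range over libraries left out, -0.02 to 0.08); Aldoc with the same scalings (-0.02, -0.01 and -0.01) and without GFP replicate 2 (-0.03 to 0.11); Eno2 without GFP replicate 2 (-0.02 to 0.35); and Pkm with TMM (-0.00). The scalings moved all genes by -0.074 (TMM), -0.0625 (upper quartile) and -0.0572 (median of ratios) on the log2 scale. No clear pairing of the dishes by replicate number was seen: deviations of same-numbered dishes correlated at 0.00159, 0.114 and 0.0447. Some dishes correlated best with their own number and others did not, so pairing is not excluded. With a replicate block, 20 genes were higher and 4 lower, companions 29 and 14, and 67.7% of all genes were called. Without a filter on low genes 45.3% of all genes were called. Under another gene length or without 1 library, 57 values of isoform shares moved by more than 1 SD and 263 did not. Leaving out 1 of 3 libraries cannot move a line's mean share by more than 1 SD of that line. The 263 are therefore not read as stability of the shares, which depend on the gene length as described above. The edgeR fit planned on counts was not run, since the deposited values are normalized log2 values; limma-voom on the recovered reads, chosen after seeing the data, took its place. Depth allows no statement on Ldhb.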

Other observations

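GFP replicate 2 held the lowest of the 3 GFP values for 24 of the 31 tested genes (77.4%), while it was lowest for 37% of all 11201 tested genes. In the NUR77 line, replicate 3 was highest for 17 of the 31 (54.8%) and for 37.5% of all tested genes, in both cases the largest share of the 3 NUR77 libraries. Without GFP replicate 2 the counts of 20 higher and 4 lower genes were as with all libraries.

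Tpi1, Gapdh and Eno2 lie near each other on chromosome 6. Of the 24 tested genes nearest to each, 3, 3 and 4 were higher and 14, 15 and 14 lower in the NUR77 line, with median log2 fold changes of -0.33, -0.35 and -0.33. Over all tested genes 38.4% were higher and 28.3% lower, or 32.2% and 34.2% with TMM scaling, and the median was 0.06. Tpi1 rose by 0.38 in that stretch. The sets of nearest genes overlap, so they describe a single stretch and are not independent. Their medians are the lowest found around the 31 tested genes. Around the other tested genes on chromosome 6, the counts higher and lower were 10 and 10 for Slc2a3, 6 and 7 for Tigar, 10 and 9 for Bpgm, and 5 and 13 for Hk2.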
